A study of Mus musculus with 19 samples.

Results

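The 9 genes described here encode transcription factors that define or share out the identities of microglia and marrow-derived macrophages: Sall1, Sall3, Mef2a, Mef2c, Spi1, Irf8, Maf, Runx1 and Klf4. They were chosen by name. All 9 were present among the 13783 genes of the sorted-cell table and the 15634 genes of the hippocampus table, and all 9 passed the filter on low values in both.

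The RNA came from irradiated mice that had been transplanted with marrow, split by whether chronic graft-versus-host disease (GVHD) was induced. Every recipient had 1100 cGy of total-body irradiation in split doses and 5000000 marrow cells depleted of T cells (TCD). GVHD mice also received 500000 splenic T cells, and TCD mice, the controls, received none. Brain cells sorted on day 70 gave 13 libraries: 6 of donor macrophages that had come from the transplanted marrow in GVHD mice, 4 of the host's own microglia in GVHD mice, and 3 of such microglia in TCD mice. Whole hippocampus was collected on day 80 from 3 GVHD and 3 TCD mice. All groups therefore share irradiation and a transplant, and neither untransplanted microglia nor donor cells of TCD mice were analysed here. Strain, sex, age and the sorting gates are not given in the sources used here, nor is whether a library came from 1 mouse or several. The p-values thus measure the spread between these libraries.

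Values are the authors' normalised counts. In the sorted cells library totals were 1051504.8 to 1090630.5 in donor libraries and 890564.5 to 961739.8 in host libraries. Every donor total thus lay above every host total. Depth was estimated from the smallest step between low values as 7901524 to 35844768 reads in the sorted libraries and 16673616 to 18546934 in hippocampus. The sorted groups carried the RNA their labels name: summed over a list of 10 marrow-macrophage markers, donor macrophages ranged from 74510 to 103800, against 3288 to 6634 in GVHD host and 2003 to 3903 in TCD host microglia. Over 11 microglia markers the sums were 13690 to 19680 in donor macrophages, 49370 to 60860 in GVHD host and 57550 to 69940 in TCD host microglia. Library 1 of each sorted group has API_183 in its title and all other libraries have API_197, and what this label stands for is not stated. TCD host library 1 is described with the word Syn where the others have TCD, so its transplant group is uncertain. In it 12 of 5314 genes lay below 10 percent of the lowest other host library, against 0 in every other host library. Neutrophil markers, summed over the 6 in the table, reached 595.5 in donor macrophages, 19.6 in GVHD host and 107.5 in TCD host microglia, with Ly6g absent from the table, and their part in the members' values was not tested.

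Microglia arise from yolk sac precursors and renew themselves in the brain, while macrophages that enter it after irradiation descend from blood stem cells. Both lineages depend on PU.1, the product of Spi1, which opens myeloid enhancers, and on its partner IRF8. Microglia add factors induced by the brain environment, chief among them SALL1, a zinc finger repressor whose loss in mice lets microglia drift toward an inflammatory macrophage state. MEF2 factors act on many of the same enhancers. MAF, RUNX1 and KLF4 work in macrophages of many tissues: MAF in mature resident cells, RUNX1 from blood stem cells onward, and KLF4 in monocytes, where it lies downstream of PU.1.

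Promoter windows of 250 bases before to 50 bases after the start were taken from a RefSeq table on GRCm38.p6, in which 6 of the 9 genes matched with 12 windows. Spi1, Maf and Sall3 have no window there. Windows are shown for Sall1 and Klf4, which differed between donor and host cells, and for Mef2a and Runx1, as examples of windows that hold the motif of their own family. All 4 are on the minus strand, read 5′ to 3′ along the gene, and capitals mark a motif match.
Sall1, first of 3 windows, chr8:89044113-89044412: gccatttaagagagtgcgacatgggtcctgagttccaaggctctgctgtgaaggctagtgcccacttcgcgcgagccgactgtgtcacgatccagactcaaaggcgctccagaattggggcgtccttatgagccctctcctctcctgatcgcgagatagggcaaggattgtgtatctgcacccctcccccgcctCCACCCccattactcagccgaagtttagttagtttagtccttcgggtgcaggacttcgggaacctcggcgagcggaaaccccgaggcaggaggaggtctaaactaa
Klf4, chr4:55532426-55532725: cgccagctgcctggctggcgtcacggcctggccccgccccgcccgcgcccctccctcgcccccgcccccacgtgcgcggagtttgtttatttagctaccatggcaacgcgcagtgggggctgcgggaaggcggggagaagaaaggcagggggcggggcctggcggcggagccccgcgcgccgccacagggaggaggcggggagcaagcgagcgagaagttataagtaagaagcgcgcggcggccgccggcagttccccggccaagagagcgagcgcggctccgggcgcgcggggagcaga
Mef2a, chr7:67372809-67373108: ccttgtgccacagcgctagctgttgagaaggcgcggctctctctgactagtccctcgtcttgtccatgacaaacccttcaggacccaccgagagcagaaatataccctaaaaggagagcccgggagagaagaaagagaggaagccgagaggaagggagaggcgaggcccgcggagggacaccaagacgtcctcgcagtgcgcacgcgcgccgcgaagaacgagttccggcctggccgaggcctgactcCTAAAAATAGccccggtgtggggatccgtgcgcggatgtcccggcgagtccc
Runx1, first of 2 windows, chr16:92826025-92826324: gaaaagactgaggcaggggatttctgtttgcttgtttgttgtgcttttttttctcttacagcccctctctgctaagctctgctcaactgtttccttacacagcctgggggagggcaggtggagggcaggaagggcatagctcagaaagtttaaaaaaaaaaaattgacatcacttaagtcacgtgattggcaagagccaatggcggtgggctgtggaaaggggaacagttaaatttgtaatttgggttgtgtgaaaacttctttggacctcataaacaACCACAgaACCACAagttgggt

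Both strands were searched for GAGGAAGT (PU.1), GAAANNGAA (IRF), CTANNNNTA (MEF2), TGTGGT (RUNX), CCACCC (KLF) and TGCTGA (MAF). The KLF letters stand in the Sall1 window with their first base at -56 from the start, and also in the other 2 Sall1 windows, at -157 and -129. That motif is common: 31.5% of all 32851 promoter windows hold it. The MEF2 letters in Mef2a begin at -2 and overlap a match on the other strand that begins at -1, against 21.0% of all windows with a match. They also stand in the third Mef2c window, not shown, with their first base at -191. Runx1 holds the RUNX letters 2 times on the opposite strand, at 29 and 37 bases after the start, in its first window only, against 16.8% of all windows. The Klf4 window holds none of the 6 motifs. No window of any member holds the PU.1 or IRF letters, which occur in 3.2% and 8.56% of all windows. A match describes these letters only, and no binding was measured.

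The first comparison sets donor macrophages against host microglia taken from GVHD mice. Sall1 and Sall3 were held in donor macrophages at about 3% of their level in host microglia, Mef2c was modestly lower and Klf4 was about 2-fold higher there, while Mef2a, Spi1, Irf8, Maf and Runx1 did not pass the test. Limma, fitted over 13086 genes with Benjamini-Hochberg adjustment and a threshold of 0.05, called 1 member higher and 3 lower in donor macrophages. Of all genes tested, 19.4% were called higher and 19.2% lower, so 4 calls among 9 genes is close to the background rate. The median log2 fold change was -0.08 over the members and 0.04 over all genes.

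**Figure D1:**
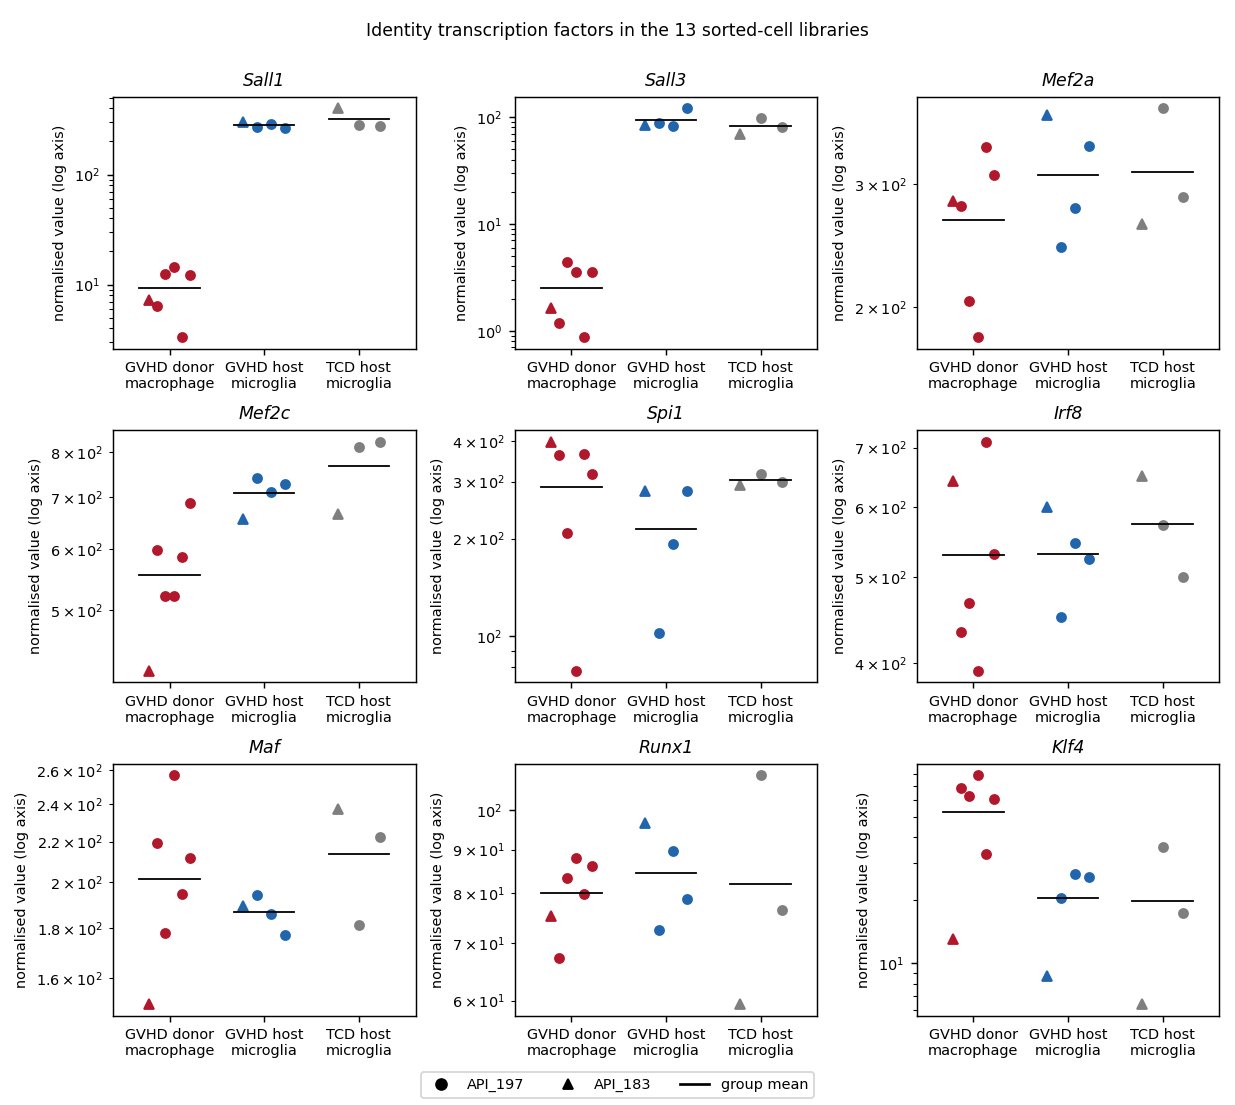
Normalised value (log axis) of each of the 9 genes in every sorted library: 6 donor macrophage, 4 GVHD host and 3 TCD host libraries, circles for API_197 and triangles for API_183, with a line at the group mean. Sall1 stays under 15 in all donor libraries and above 260 in all host libraries, and the Klf4 triangles lie below the circles of their own group.

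Sall1 (ENSMUSG00000031665, chromosome 8, 89027235 to 89044162, minus strand, GRCm38) encodes the factor most closely tied to microglial identity. Its normalised value was 7.27, 6.40, 12.4, 14.4, 3.33 and 12.3 in donor libraries 1 to 6, 297, 269.6, 286 and 263 in the GVHD host libraries, and 401, 281 and 274 in the TCD host libraries. The lowest host library was thus far above the highest donor library, and the groups did not overlap. The log2 fold change, donor over GVHD host, was -4.87 ± 0.30 (SE, limma adjusted p = 8.48e-08), and only 0.222% of tested genes had a larger change in either direction. Against TCD host microglia it was -5.03 ± 0.34 (limma adjusted p = 1.63e-07).

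Sall3 (ENSMUSG00000024565, chromosome 18, 80966376 to 80986771, minus strand, GRCm38) encodes a zinc finger protein of the same family. It was measured at 1.62, 1.19, 4.40, 3.55, 0.87 and 3.58 in donor libraries 1 to 6, against 84.6, 87.4, 82.7 and 121.5 in GVHD host and 69.1, 99.0 and 80.8 in TCD host microglia. Donor and host values did not overlap here either. Its log2 fold change was -4.87 ± 0.29 against GVHD host (limma adjusted p = 5.06e-08) and -4.72 ± 0.31 against TCD host microglia (limma adjusted p = 1.63e-07). Both fold changes are on the log2(value + 1) scale, which understates the difference for donor values as low as these: a pseudocount of 5 gave -3.74 for Sall3 against GVHD host and 0.5 gave -5.13.

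As a share of the GVHD host mean, donor macrophages held 3.35% ± 1.55 of Sall1 and 2.70% ± 1.58 of Sall3 (SD, n = 6 each). The 11 microglia markers of the list ran from 3.96% for Slc2a5, a fructose transporter, to 180.5% for Fcrls, an Fc receptor-like protein, with a median of 26.5%. On average Sall1 and Sall3 were therefore below all 11, P2ry12 (8.95%) and Tmem119 (30.4%) included, although Slc2a5 lay within the spread of Sall1 between libraries. In donor library 5 Sall1 stood at 1.195% of the host mean and Sall3 at 0.926%, the lowest of the 6, while Tmem119 stood at 43.6%, the highest of the 6. Donor libraries 3, 4 and 6 were the 3 highest for Sall1, Sall3, Slc2a5 and Sparc alike. Astrocyte markers, summed over the 6 of 7 in the table (Aqp4 was absent), came to 47.7 to 86.4 in donor macrophages, 338 to 448 in GVHD host and 247 to 300.4 in TCD host microglia, and their part in the Sall values was not tested. Slc1a3, a glutamate transporter, carried that gap, at 29.1 ± 10.04 in donor macrophages, 358 ± 51.2 in GVHD host and 267.5 ± 27.2 in TCD host microglia (SD, n = 6, 4 and 3). Gfap, the astrocyte filament protein, lay the other way, at 16.3 ± 5.95 in donor macrophages, 6.01 ± 1.05 in GVHD host and 4.27 ± 1.63 in TCD host microglia, and the other 4 overlapped between donor and GVHD host cells. Host RNA carried into the donor sort and transcription in donor cells cannot be told apart for these residual values. The ratio of Sall1 to Sall3 overlapped between all 3 groups: it averaged 4.00 ± 0.88 in donor macrophages, 3.06 ± 0.63 in GVHD host and 4.02 ± 1.58 in TCD host microglia (SD, n = 6, 4 and 3).

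**Figure D2:**
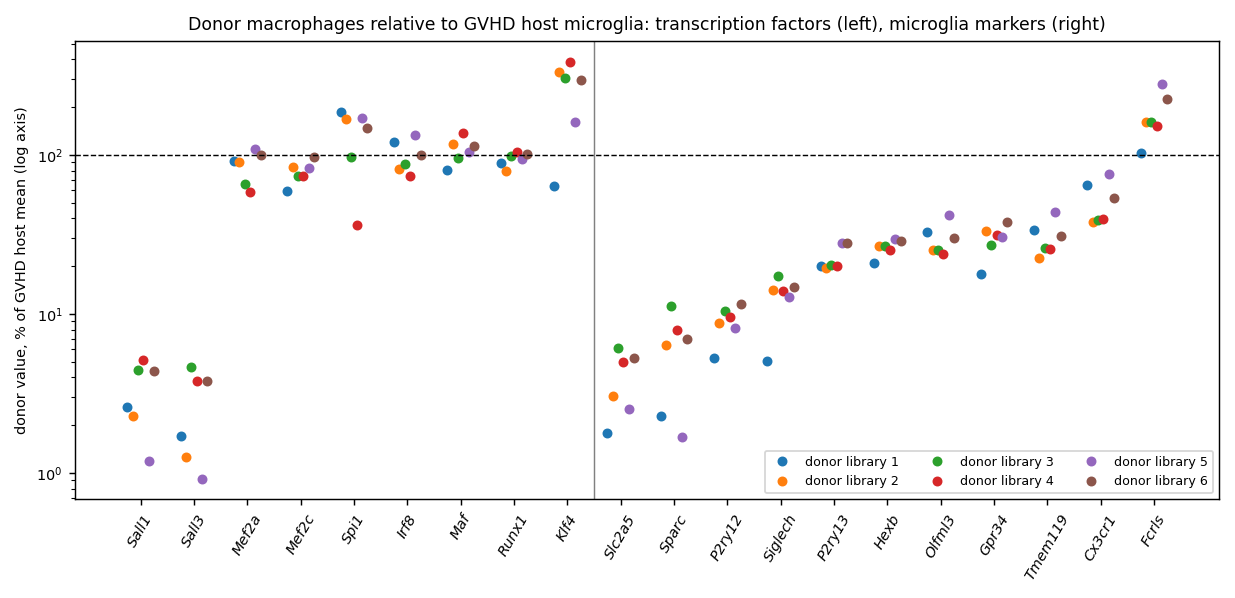
Value in each of the 6 donor libraries as a percentage of the GVHD host mean (log axis, dashed line at 100), for the 9 transcription factors on the left and the 11 microglia markers on the right. Sall1 and Sall3 lie between 0.926% and 5.17%, Mef2a to Runx1 lie far closer to 100%, and the markers spread upward from Slc2a5 to Fcrls.

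MEF2 proteins bind A/T-rich sites and in microglia restrain inflammatory genes. Mef2c (ENSMUSG00000005583, chromosome 13, 83504034 to 83667080, plus strand) had values of 418, 598, 521, 522, 585 and 687 in donor macrophages, 656, 739.8, 709 and 726 in GVHD host and 665, 812 and 825 in TCD host microglia. Only donor library 6 reached into the host range. Its log2 fold change was -0.39 ± 0.09 against GVHD host (limma adjusted p = 0.00559) and -0.53 ± 0.10 against TCD host microglia (limma adjusted p = 0.00159). The change was small beside those of other genes, since 45.7% of tested genes differed by more between donor and GVHD host cells. Mef2a (ENSMUSG00000030557, chromosome 7, 67231163 to 67372858, minus strand) ranged from 181 to 339 in donor macrophages, 243 to 376 in GVHD host and 263 to 385 in TCD host microglia. These ranges overlapped throughout, and the difference from GVHD host was -0.22 (95% interval -0.64 to 0.20, limma adjusted p = 0.396).

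Spi1 (ENSMUSG00000002111, chromosome 2, 91082390 to 91115756, plus strand) had values of 399, 363, 208, 78.0, 365 and 316 in donor macrophages, 280.3, 102, 193 and 282 in GVHD host and 292, 317 and 299 in TCD host microglia. Donor library 4 and GVHD host library 2 were far below the rest of their groups. The difference between donor and GVHD host cells was 0.40 (95% interval -0.49 to 1.29, limma adjusted p = 0.477), an interval that leaves room for more than a 2-fold change. It ran from 0.10 without GVHD host library 2 to 0.71 without donor library 4, with no call in either case. Irf8 (ENSMUSG00000041515, chromosome 8, 120736358 to 120756694, plus strand) was at 642, 433, 468, 392, 711 and 530.4 in donor macrophages, 599, 451, 546 and 524 in GVHD host and 650.2, 572 and 500.2 in TCD host microglia. Its groups overlapped fully, with a difference of -0.00 from GVHD host (95% interval -0.32 to 0.31, limma adjusted p = 0.993).

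Over the 13 libraries the genes closest to Spi1 in pattern were Timm29, C1qc and Hgsnat, with root mean square log2 differences of 0.18 to 0.20 beside a spread of 0.68 for Spi1 itself. C1qc encodes a chain of complement C1q, whose other chains come from the neighbouring genes C1qa and C1qb. C1qc stood at 932 in donor library 4 and 1481 in GVHD host library 2, the lowest of their groups, where C1qb stood at 5082 and 5428. Across groups the ratio of C1qc to C1qb ran from 0.183 to 0.846 in donor macrophages, from 0.273 to 0.964 in GVHD host and from 0.686 to 1.04 in TCD host microglia. In these 2 libraries C1qc and Spi1 were thus low together while C1qb was among the highest of its group. In donor library 3, the next lowest for C1qc (2003) and Spi1 (208), C1qb was the lowest of its group, at 4360. C1qa and C1qb were set beside C1qc after their values were seen.

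Maf and Runx1 had overlapping values in all 3 sorted groups. Maf (ENSMUSG00000055435, chromosome 8, 115682942 to 115707794, minus strand) was at 151, 219, 178, 257, 195 and 212 in donor macrophages, 189, 194, 186 and 177 in GVHD host and 237, 181 and 223 in TCD host microglia. The host values lay within the donor range, and the difference from GVHD host was 0.08 (95% interval -0.20 to 0.37, limma adjusted p = 0.645). Runx1 (ENSMUSG00000022952, chromosome 16, 92601466 to 92826149, minus strand) ranged from 67.3 to 87.9 in donor macrophages, from 72.6 to 96.6 in GVHD host and from 59.4 to 110.0 in TCD host microglia. Its difference from GVHD host was -0.08 (95% interval -0.41 to 0.24, limma adjusted p = 0.692).

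Klf4 (ENSMUSG00000003032, chromosome 4, 55527143 to 55532466, minus strand) encodes a zinc finger factor that promotes monocyte differentiation and also responds early to stimulation. It had values of 13.1, 68.5, 62.7, 79.2, 33.2 and 60.9 in donor macrophages, 8.74, 20.5, 26.7 and 25.9 in GVHD host and 6.40, 35.9 and 17.4 in TCD host microglia. Over all libraries the groups overlapped, because donor library 1 fell within the host range, as did donor library 5 within that of TCD host. The log2 fold change was 1.09 ± 0.25 against GVHD host, or 2.13-fold (limma adjusted p = 0.00386), and 1.16 ± 0.28 against TCD host microglia (limma adjusted p = 0.00529). Without the API number in the model both calls were lost, with larger estimates of 1.24 (limma adjusted p = 0.0940) and 1.45 (limma adjusted p = 0.0748). With API_197 libraries alone they were 1.24 (limma adjusted p = 0.00639) and 1.19 (limma adjusted p = 0.0174). The call against TCD host microglia was also lost without TCD host library 3, at 0.88 (limma adjusted p = 0.0515).

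Within each sorted group every API_197 library exceeded the API_183 library for Klf4. The API_197 mean was 60.9 against 13.1 in donor macrophages, 24.4 against 8.74 in GVHD host and 26.7 against 6.40 in TCD host microglia. This contrast was added after the values were seen, and its log2 fold change was 1.77 ± 0.26, API_197 over API_183 (limma adjusted p = 0.00304), beside 1.09 for donor over GVHD host cells. Mef2c also passed, at 0.31 ± 0.10 (limma adjusted p = 0.0482), and lost its call without any one of 11 single libraries. The 7 other members did not pass, and 8.59% of all genes were called higher and 7.93% lower. That background rests on single libraries: the 2162 genes called became 290 without TCD host library 1, 314 without donor library 1 and 4261 without donor library 5. Genes of the early response to stimulation moved with Klf4: Egr1 by 2.08 ± 0.28, Nr4a1 by 1.88 ± 0.27, Fos by 1.57 ± 0.25 and Klf6 by 1.16 ± 0.16, all called. Jun (0.73 ± 0.28) and Junb (0.02 ± 0.46) were not called. Their part in the Klf4 difference between cell types was not tested. Between donor and GVHD host cells these genes went both ways, with Fos higher by 1.05 ± 0.24 and Egr1 lower at -1.29 ± 0.28, both called.

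**Figure D3:**
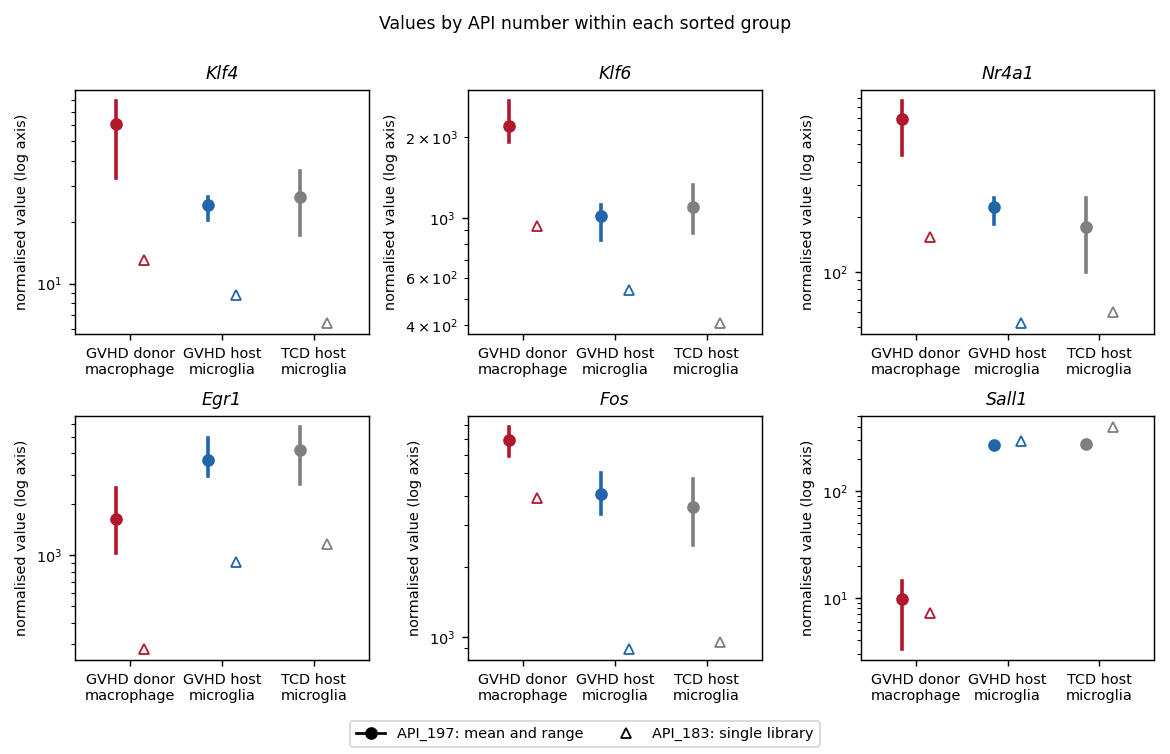
Normalised value (log axis) by API number within each sorted group, with the API_197 mean and range as a filled circle and line (5, 3 and 2 libraries) and the API_183 library as an open triangle. Klf4, Klf6, Nr4a1, Egr1 and Fos lie lower at API_183 in all 3 groups, and Sall1 does not.

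Donor macrophages were then set against TCD host microglia, which share the donor libraries with the comparison above and are not independent of it. The same 4 genes were called, with 1 higher and 3 lower, against 18.4% and 18.6% of all genes. The members' median log2 fold change was -0.17, against -0.01 over all genes. Mef2a (-0.23), Spi1 (-0.17), Irf8 (-0.09), Maf (-0.11) and Runx1 (-0.02) did not pass, with limma adjusted p from 0.455 to 0.954. Leaving out the TCD host library of uncertain group gave -4.87 for Sall1, -4.74 for Sall3, -0.52 for Mef2c and 1.14 for Klf4, and all 4 were still called.

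**Figure D4:**
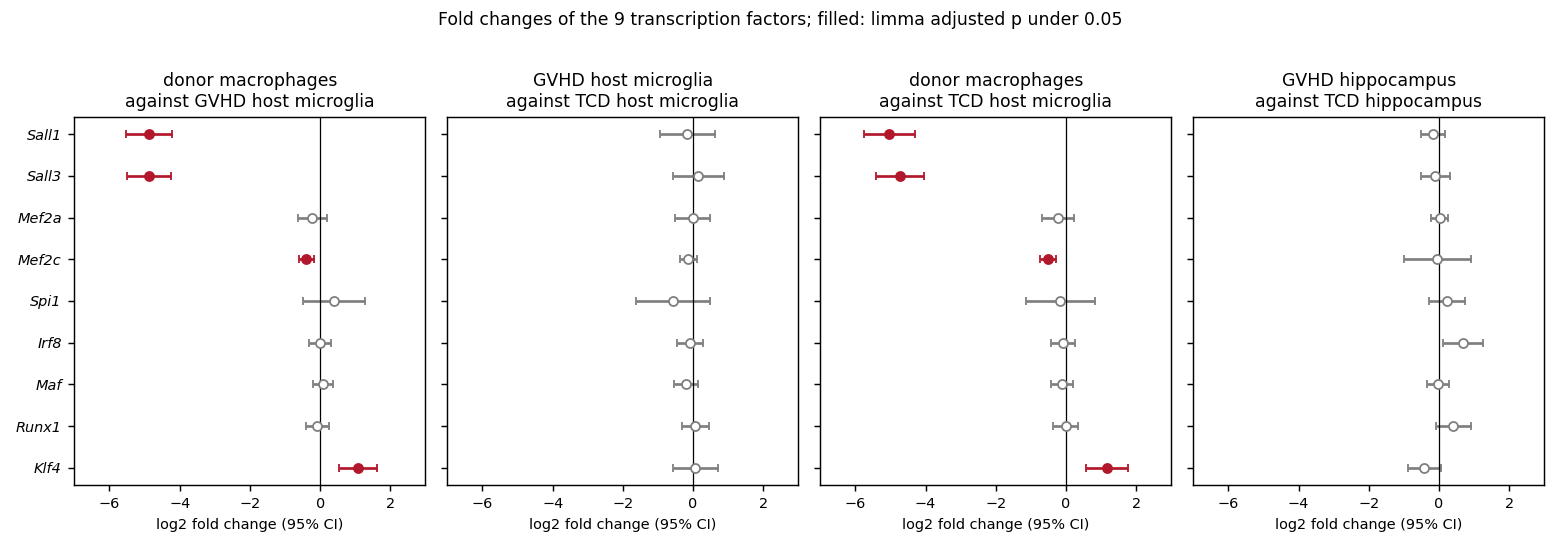
Log2 fold change with its 95% interval for each gene in the 4 comparisons, filled red where the limma adjusted p was under 0.05. Sall1 and Sall3 lie near -5 in both comparisons of donor with host cells, Mef2c and Klf4 are called on opposite sides of 0, and no gene is called between GVHD and TCD.

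The comparison of GVHD with TCD host microglia asks whether the disease shifts these factors in resident cells. No member was called, against 0.0917% of genes called higher and 0.0153% lower, and 897 of 13086 genes had an unadjusted p under 0.05. Sall1 averaged 279 ± 15.6 in GVHD host and 319 ± 71.4 in TCD host microglia (SD, n = 4 and 3), a log2 difference of -0.16 ± 0.36 (limma adjusted p = 0.943). Without TCD host library 1, the highest of all, the Sall1 difference was 0.02. Sall3 differed by 0.15 ± 0.34 and Mef2c by -0.14 ± 0.11, neither called. Spi1 was lower in all 4 GVHD host libraries (102 to 282) than in all 3 TCD host libraries (292 to 317), but was not called. Its log2 difference was -0.56 (95% interval -1.62 to 0.49, limma adjusted p = 0.888). How many of all genes also lay without overlap between these host groups was not counted. Without GVHD host library 2 that Spi1 difference was -0.29, and without TCD host library 1 it was -0.81, with no call in either case. Maf (-0.19), Irf8 (-0.09), Klf4 (0.07), Runx1 (0.07) and Mef2a (-0.01) had limma adjusted p from 0.882 to 0.999. The 95% interval for Sall1 ran from -0.94 to 0.62.

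In whole hippocampus the same factors come from many cell types. Mef2a and Mef2c are also neuronal genes, and fewer cells of a type cannot be told apart from less RNA per cell. No member was called between GVHD and TCD hippocampus, against 0.319% of genes called higher and 0.16% lower, and 2449 of 14404 genes had an unadjusted p under 0.05. Irf8 was 7.83, 10.3 and 6.22 in GVHD against 5.99, 5.46 and 2.94 in TCD hippocampus, with no overlap and a log2 difference of 0.67 (95% interval 0.11 to 1.24, limma adjusted p = 0.220). The microglia marker sums beside it were 399 to 508 in GVHD and 464 to 542 in TCD hippocampus, and those of the marrow-macrophage list were 1688 to 2983 in GVHD and 1437 to 2031 in TCD hippocampus. The marrow-macrophage list includes Apoe, and which cell types gave its sum in whole tissue was not tested. It is therefore not a measure of macrophage content here. The part of either list in the Irf8 values was not tested. How many of all genes also lay without overlap between these groups was not counted. Runx1 averaged 2.22 ± 0.79 in GVHD and 1.39 ± 0.26 in TCD hippocampus (limma adjusted p = 0.378), and Klf4 4.14 ± 1.15 in GVHD and 5.79 ± 1.09 in TCD hippocampus (limma adjusted p = 0.340; SD, n = 3 and 3 throughout).

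Sall1 was at 22.3, 18.5 and 27.8 in GVHD and 23.9, 28.8 and 24.2 in TCD hippocampus, and Sall3 at 5.94, 5.68 and 9.33 in GVHD and 7.56, 7.90 and 6.85 in TCD hippocampus, overlapping in both cases. Mef2c varied most, from 184 to 281 in GVHD and from 127 to 504 in TCD hippocampus, so that its interval spanned -1.01 to 0.90. Mef2a (253 to 272 in GVHD, 234 to 309 in TCD), Spi1 (3.99 to 4.97 in GVHD, 2.32 to 4.83 in TCD) and Maf (22.9 to 31.7 in GVHD, 23.3 to 29.3 in TCD) overlapped too. Choroid plexus markers summed to 1052 to 3690 in GVHD and 29.7 to 107.3 in TCD hippocampus, and neuron markers to 9406 to 9585 in GVHD and 10420 to 12260 in TCD hippocampus. Their part in the members' values was not tested.

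**Figure D5:**
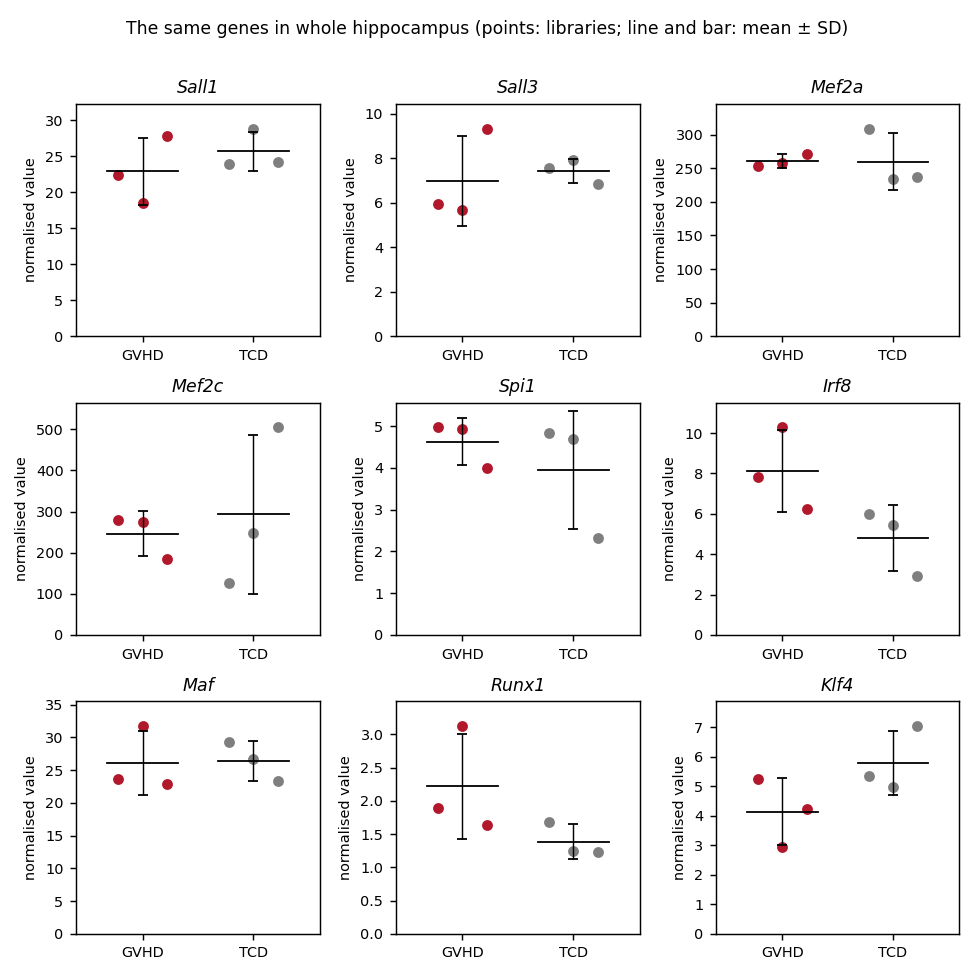
Normalised value of each gene in the 3 GVHD and 3 TCD hippocampus libraries (linear axes from 0; line and bar, mean ± SD). The 3 GVHD values of Irf8 lie above the 3 TCD values, but Irf8 was not called (limma adjusted p = 0.220). The groups overlap for the other genes, and the share of all genes without overlap was not counted.

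Per kilobase of exon, Spi1 and Irf8 had the highest means of the members in all 3 sorted groups. These were 107 and 75.0 in donor macrophages, 79.5 and 75.2 in GVHD host and 112 and 81.4 in TCD host microglia. Sall1 came next in host microglia, with a level per kilobase of 53.0 in GVHD host and 60.6 in TCD host, and was the second lowest in donor macrophages, at 1.78. Sall3 was the lowest in donor macrophages, at 0.339. Spi1 and Irf8 overlapped between libraries in donor and GVHD host cells, as did Maf and Mef2a and also Runx1 and Klf4 in every sorted group, so their order is not resolved there. In TCD host microglia Sall1 overlapped both Irf8 above it and Mef2c below it. In donor macrophages Mef2c and Maf overlapped too, as did Mef2a and Klf4. GVHD host library 2 had Spi1 at 37.9, below Sall1 (51.2) and Mef2c (47.1). Donor library 4 had it at 29.0, below Mef2c (33.2) and Maf (31.2). The place of Spi1 above these genes is thus not resolved in those groups. In hippocampus Mef2a and Mef2c led, at 17.8 and 15.7 per kilobase in GVHD and 17.7 and 18.7 in TCD, and Runx1 was lowest in both groups. Spi1 was at 1.72 in GVHD and 1.47 in TCD hippocampus.

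Relatives and partners of the 9 factors were read from a list of 23 genes, of which 20 were tested. Between donor and GVHD host cells 9 were called higher and 1 lower, beside 19.4% and 19.2% of all genes, with a median log2 fold change of 0.36 beside 0.04 over all genes. The ETS factor Spic, close in structure to PU.1 and known in iron-recycling macrophages, averaged 17.1 ± 0.63 in donor macrophages and 0.792 ± 0.206 in GVHD host microglia. Runx3 averaged 20.4 ± 4.67 in donor macrophages and 1.37 ± 0.83 in GVHD host microglia, and Runx2 7.13 ± 0.70 in donor macrophages and 0.326 ± 0.146 in GVHD host microglia (SD, n = 6 and 4 throughout). The relatives Runx2 and Runx3 were thus higher in donor cells where Runx1 did not pass. Klf6 differed by 1.04 ± 0.15 and Klf2 by 1.70, both called higher, and the small MAF protein gene Mafg, at -1.004, was the one called lower.

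Of 35 other myeloid transcription factors tested, 13 were called higher and 6 lower in donor than in GVHD host cells, with a median of 0.21. The share called lower is near that of all genes, 19.2%, and 19.4% of all genes were called higher. Tfec (2.59 ± 0.23), Nr1h3, the oxysterol receptor LXR alpha (1.98 ± 0.22), and Pparg (2.83) were higher in donor macrophages. Ets1 (-1.98 ± 0.11), Tal1 (-2.497 ± 0.27) and Bhlhe41 (-1.52) were lower. Tal1 averaged 0.862 ± 0.713 in donor macrophages and 9.33 ± 1.45 in GVHD host microglia, and Ets1 28.8 ± 5.66 in donor macrophages and 113 ± 19.5 in GVHD host microglia (SD, n = 6 and 4). Against TCD host microglia the same 2 lists had 8 higher and 1 lower, and 13 higher and 7 lower. Of all genes, 18.4% were called higher and 18.6% lower there.

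Of 10 genes known as targets of PU.1 and IRF8, 2 were higher and 3 lower in donor than in GVHD host cells, which is close to the 19.4% and 19.2% of all genes. Cybb, the catalytic subunit of the phagocyte oxidase, averaged 1678 ± 212 in donor macrophages and 118 ± 71.4 in GVHD host microglia. Itgam, the CD11b integrin chain, averaged 278 ± 32.7 in donor macrophages and 849.9 ± 73.8 in GVHD host microglia, and Cst3, which encodes cystatin C, differed by -2.21 ± 0.20. Csf2ra, a receptor chain for GM-CSF, was higher at 0.97 ± 0.14, and Fcgr1, an IgG receptor, lower at -0.31. Of 8 genes known as targets of MAF, 4 were higher and 0 lower: Mrc1 (5.11 ± 0.32), Il10 (3.40 ± 0.28), Cd5l (2.26 ± 0.27) and Cd163 (2.70 ± 0.65). C1qa, C1qb, C1qc and Folr2 of that list were not called. The medians of the 2 target lists were -0.14 and 1.16, beside 0.04 over all genes. Against TCD host microglia 3 PU.1 and IRF8 targets were higher and 2 lower, and 3 MAF targets were higher and 0 lower. All genes had 18.4% called higher and 18.6% lower in that comparison.

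By API number, 13 of the 73 tested genes of these 4 lists were higher and 6 lower in API_197 than in API_183 libraries, beside 8.59% and 7.93% of all genes. Between GVHD and TCD host microglia none of the 73 was called, beside 0.0917% of all genes higher and 0.0153% lower. In hippocampus none of the 62 tested was called, beside 0.319% of all genes higher and 0.16% lower. At such low shares the lack of calls does not set these lists apart from other genes. Among the list genes, the interferon-response factor Irf1 differed by 0.65 ± 0.17 in host microglia (limma adjusted p = 0.195). In hippocampus the smallest p-values were those of Mitf (0.63 ± 0.14, limma adjusted p = 0.0852), Mef2d (-0.35 ± 0.08, limma adjusted p = 0.0955) and Ctss (0.65 ± 0.16, limma adjusted p = 0.0959).

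Across the 13 sorted libraries the genes with the pattern most like Sall1 were Sgce, Slc2a5 and Nav3, with a root mean square log2 difference of 0.33 to 0.36 beside a spread of 2.51 for Sall1 itself. Sall3 itself lay as close to Sall1, at 0.34, and its own nearest genes were Nav3, Sgce and Naalad2. Nav3 averaged 6.19 in donor macrophages, 194 in GVHD host and 206 in TCD host microglia, and Sgce 5.83 in donor macrophages, 129 in GVHD host and 153 in TCD host microglia. The gene nearest to Klf4 was Klf6, at 0.39 beside a spread of 1.06, followed by Stk17b at 0.40. These likenesses are descriptions over libraries that share their cell type and API number.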

How the data were processed

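Per the submitters' processing notes, cutadapt 1.9, STAR 2.5.2a and RSEM 1.2.30 were used with the build GRCm38, with no role or annotation release given. The deposited signal is the authors' normalised counts, and how they were scaled is not stated. Only 67.6% to 73.3% (sorted cells) and 79.7% to 81.7% (hippocampus) of values under 5 were whole multiples of the smallest step, within 0.02 of a step, so no count test was run. Of the identifiers, 213 and 192 had no symbol in GENCODE's GRCm38 annotation, which also gave coordinates and exon length.

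Values were analysed as log2(value + 1), for genes with at least 1 in at least 3 libraries (13086 in sorted cells, 14404 in hippocampus), by limma 3.58.1 (R 4.3.3) with its mean-variance trend. Tests were two-sided, p-values were adjusted by Benjamini-Hochberg over every gene tested, and an adjusted p under 0.05 counted as a call. The 13 sorted libraries were fitted in 1 model with the API number as a covariate, and the 6 hippocampus libraries by group alone. The code was tested on simulated data. Groups came from the sample titles.

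The members, gene lists and tests were chosen with earlier results of these data known. Named from each list were the up to 4 tested genes with the smallest p, and further list genes after their values were seen. Likeness is the root mean square difference of centred log2 values. The contrast of API numbers and a correction for GC content were added after seeing the data. Other alternatives covered pseudocount, filter, scaling, variance trend, a replicate block, the API term and each library left out. Some genes of these lists are not reported here by name.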

Additional observations from a re-analysis of the deposited data

Results flagged for a closer look

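Of 18 group values checked for a library far from the others (9 genes in donor macrophages and in GVHD host microglia), 1 stood apart. Sall3 was 121.5 in GVHD host library 4, where the other 3 GVHD host libraries lay between 82.7 and 87.4, and the gap took up 0.878 of the group's range, above the critical 0.829. Chance alone flags about 5% of groups. Sall1 was the lowest of its group in the same library, at 263.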

How the results depend on the processing

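Over 36 fold changes of members, 680 of 727 recomputed values kept their direction and side of the threshold, 44 changed sign with neither value called, and 3 lost the call, all of Klf4: without the API term against GVHD host (1.24) and TCD host (1.45) and without TCD host library 3 (0.88). No called value reversed. Equal library totals moved the median of all genes to -0.12 for donor macrophages against GVHD host and -0.15 against TCD host microglia, and Mef2c was then at -0.57 and -0.69. The number of members called was 4, 0, 4 and 0 in the 4 comparisons, and 3 wherever Klf4 was lost. For API_197 against API_183 it ran from 1 to 3 with 1 library left out, being 1 where Mef2c was lost, and Irf8 joined, lower, without donor library 5 (-0.35, limma adjusted p = 0.0249). Over all genes, calls between GVHD and TCD host microglia were 14, and 0 with only these 2 groups fitted. With 1 library left out they were 6 without GVHD host 1, 2 or 4, 7 without TCD host 2, 21 without TCD host 3 and 28 without GVHD host 3. In hippocampus they were 69, and 0 without the variance trend, without TCD library 2 or without GVHD library 3, 2 without GVHD library 1 and 123 without TCD library 3. Calls by API number were 2162, and ran from 290 to 4261 with 1 library left out, including 701 without TCD host 3 and 1090 without GVHD host 2.

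Libraries of different groups were correlated on log2 values after each gene's group mean was taken off. Pairs with the same title number correlated by -0.0216 to 0.585 in sorted cells and -0.183 to -0.0403 in hippocampus. Pairs with different numbers correlated by -0.582 to 0.532 and -0.0757 to 0.194. The value of 0.585 was that of donor library 1 with TCD host library 1, which share API_183. The sample descriptions number some sorted libraries otherwise. By those numbers, matching donor and GVHD host libraries correlated by 0.166 to 0.394. Whether sorted libraries are paired is therefore not known, and a block by description number was not fitted. A fit with a replicate block by title number called the same number of members (1 higher and 3 lower, with Klf4 at 1.25 against GVHD host). It called 2 genes in all between host groups and 16 in hippocampus. As it follows the titles, it does not test pairing by description number.

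Of the sorted libraries 3 (donor 1, donor 5 and TCD host 1) had log2 values that climbed with GC content, by 0.290 to 0.355 for each 10 points, against -0.173 to 0.0201 in the other 10. With a GC correction, Klf4 was at 1.05 (limma adjusted p = 0.00951) and Mef2c at -0.33 (limma adjusted p = 0.0355) against GVHD host. Spi1 and Runx1 of hippocampus fell below a filter of 5 and have no value there. The lowest Sall3 value, 0.87, came from donor library 5, the deepest of the sorted libraries at an estimated 35844768 reads.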
